A study of Mus musculus with 18 samples.

Results

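The heat shock and DnaJ chaperone genes are the genes of the deposited expression table whose symbol starts with Hsp or Dnaj, without the HSP90 genes Hsp90aa1 and Hsp90ab1. The rule found 72 of 22708 genes, 27 starting with Hsp and 45 starting with Dnaj. It matches letters only, so it also took Hspg2 (perlecan, a matrix proteoglycan), Hspb11 (a subunit of intraflagellar transport) and Hspbap1, which are named as such below.

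The study asked what the aryl hydrocarbon receptor (AHR) does in eosinophils of the mouse small intestine, and measured RNA by single-end sequencing of eosinophils sorted from that tissue. Cells were gated as CD11b+ MHC-II- SiglecF+ with high side scatter, after the epithelium had been shaken off in warm EDTA, the tissue digested warm with collagenase and DNase, and CD11b+ cells enriched on beads. RNA was taken right after the sort, so each sample passed through the whole isolation. The 18 samples were 6 wild-type (WT), 6 Ahr-KO and 6 Ahrr-KO mice, each group with 3 females (F1 to F3) and 3 males (M1 to M3), all labelled C57/BL6 and untreated, with no age in the sample labels. Ahrr encodes the AHR repressor, a target of AHR that competes with it. Ahr-KO mice lack the receptor in the whole body, and they and their WT controls were neither littermates nor housed together, so that line, cage and genotype cannot be told apart. The study's text does not describe how the Ahrr-KO mice were made.

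Depth differed with genotype. Total counts per sample were 3842977 to 8149200 in WT (median 6022410), 6581818 to 10284124 in Ahr-KO (median 9647590) and 8788867 to 12046933 in Ahrr-KO (median 10371556). Counts above 0 were found for 20244 genes in WT F3 and 19694 in Ahr-KO F3, against 15146 to 17236 in the other libraries. Values below are the deposited log2 values, made by a variance-stabilizing transformation in which a count of 0 is 5.02. That scale shrinks the differences of genes with few counts, so ratios of mean normalized counts are given beside some of them. A gene was called at an adjusted p below 0.05 in limma, fitted across all genes whose mean over the samples compared lay at least 1 unit above the value of a count of 0. The 55 heat shock and DnaJ genes tested were the same in each comparison, except that Dnajb13 was tested in place of Dnajc6 between WT and Ahrr-KO.

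Chaperones of the HSP70 family hold unfolded stretches of protein and release them in a cycle driven by ATP. DnaJ proteins, which share the J domain, bring clients to HSP70 and start ATP hydrolysis, while HSP110 proteins such as Hsph1 and Hspa4 swap the nucleotide and end the cycle. Cytosol, endoplasmic reticulum and mitochondria each hold their own set, and heat shock factor raises a subset within minutes of heat or protein damage, which makes these genes known responders to warm tissue digestion.

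Promoter sequences from RefSeq on mouse build GRCm38.p6 were searched for the heat shock element, the AHR core motif and the endoplasmic reticulum stress element. Of the 72 genes, 60 had an entry, with 77 windows of 300 bases, 250 before and 50 after a start site. No entry was found for Dnajc11, Dnajc12, Dnajc18, Dnajc2, Dnajc22, Dnajc30, Dnajc5, Dnajc5b, Hspa13, Hspa8, Hspa9 and Hspb2. The heat shock element of 2 units, GAANNTTC or TTCNNGAA, was searched on both strands and found in 15 of 60 genes (25%) and in 17% of all 27025 genes. Its 3-unit form, GAANNTTCNNGAA or TTCNNGAANNTTC, contains the shorter motif and was found in 4 of 60 genes (6.67%), namely Dnajb6, Hspd1, Hspe1 and Hsph1, and in 0.662% of all genes. The AHR core GCGTG was found in 32 of 60 (53.3%) against 35.2% of all genes, and the endoplasmic reticulum stress element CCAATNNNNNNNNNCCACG in Dnajc3, Hsp90b1 and Hspa5 (5%) against 0.137%. Each match is a description of letters in the window. The windows below are of some genes named in the results that hold a matched element, whether called or not. They read 5′ to 3′ on the gene's own strand, with the matched element in capitals. The Hspa1a window (chr17:34972107-34972406, minus strand) has a 2-unit element whose leftmost base lies 104 bases before the start, and is identical to that of its neighbour Hspa1b at 296 of 300 bases (98.7%). A Hsph1 window (chr5:149636266-149636565, minus strand) has a 3-unit element from 15 bases after the start. The Hspe1 window (chr1:55087898-55088197, plus strand) has a pair of overlapping 3-unit matches from 89 bases before the start, and shares 285 of 300 bases with a window of Hspd1, which is read the other way. A window of Dnajb4 (chr3:152193796-152194095, minus strand) has a 2-unit element from 14 bases before the start, while the gene's other window (chr3:152210034-152210333) has no heat shock element and 2 AHR cores. The Hspa5 window (chr2:34771840-34772139, plus strand) has a stress element of the endoplasmic reticulum from 65 bases before it.
Hspa1a: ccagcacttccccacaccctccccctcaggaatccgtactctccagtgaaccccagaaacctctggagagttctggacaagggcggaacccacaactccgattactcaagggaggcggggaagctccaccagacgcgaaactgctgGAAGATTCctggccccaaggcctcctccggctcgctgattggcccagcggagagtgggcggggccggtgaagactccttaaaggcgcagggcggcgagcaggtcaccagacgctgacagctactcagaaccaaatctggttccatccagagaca
Hsph1: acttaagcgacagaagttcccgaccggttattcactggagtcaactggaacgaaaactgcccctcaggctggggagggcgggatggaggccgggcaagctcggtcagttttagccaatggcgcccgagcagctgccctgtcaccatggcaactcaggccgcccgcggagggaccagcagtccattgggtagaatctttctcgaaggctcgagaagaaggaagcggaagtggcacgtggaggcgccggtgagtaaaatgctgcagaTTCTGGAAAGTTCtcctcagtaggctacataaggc
Hspe1: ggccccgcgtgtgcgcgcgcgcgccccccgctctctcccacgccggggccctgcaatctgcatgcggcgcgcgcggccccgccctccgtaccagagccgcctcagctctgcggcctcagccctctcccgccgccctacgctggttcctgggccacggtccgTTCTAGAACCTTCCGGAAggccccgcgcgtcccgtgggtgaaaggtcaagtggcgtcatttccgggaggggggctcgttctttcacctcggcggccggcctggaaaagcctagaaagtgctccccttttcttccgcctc
Dnajb4: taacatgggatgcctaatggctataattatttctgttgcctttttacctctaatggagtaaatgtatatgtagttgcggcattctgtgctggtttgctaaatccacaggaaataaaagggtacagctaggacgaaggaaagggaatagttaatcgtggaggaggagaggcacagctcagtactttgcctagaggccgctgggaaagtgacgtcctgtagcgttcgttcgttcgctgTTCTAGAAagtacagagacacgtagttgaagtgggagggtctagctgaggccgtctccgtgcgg
Hspa5: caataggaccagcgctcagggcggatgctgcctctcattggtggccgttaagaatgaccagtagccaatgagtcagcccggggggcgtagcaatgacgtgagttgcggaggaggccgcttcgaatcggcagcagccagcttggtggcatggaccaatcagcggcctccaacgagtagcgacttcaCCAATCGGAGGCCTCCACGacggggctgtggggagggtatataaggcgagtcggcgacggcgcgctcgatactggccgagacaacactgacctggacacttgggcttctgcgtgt

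The targeted genes were read before any comparison. Ahr ranged from 13.40 to 14.40 in WT (median 13.76), from 14.15 to 14.67 in Ahr-KO (median 14.55) and from 13.03 to 14.42 in Ahrr-KO (median 13.51), so Ahr transcript was present in all samples of all groups. Ahrr ranged from 9.79 to 10.39 in WT (median 10.12), from 5.02 to 5.79 in Ahr-KO (median 5.25) and from 9.95 to 10.93 in Ahrr-KO (median 10.37). Ahr-KO samples thus lay near a count of 0 for this AHR target, while Ahrr-KO samples overlapped WT for Ahrr. Cyp1b1, another AHR target, ranged from 8.68 to 10.23 in WT, from 5.24 to 5.57 in Ahr-KO and from 9.27 to 10.45 in Ahrr-KO. The low values of both targets go with the Ahr-KO label. Which exons are deleted is not given, and counts over the whole targeted gene do not check the label of either line.

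Eosinophil markers were uneven. Of 10 markers, 7 had counts in all samples, while Ear6 was at 0 in 16 samples, Prg3 in 6 and Ear2 in 1. Alox15 was the most abundant of them (mean normalized count 18966), followed by the surface receptors Ccr3, Il5ra and Siglecf at 11975, 2154 and 2109. The granule protein genes were low, with Prg2 at 268, Epx at 10.2, Ear2 at 8.69, Ear1 at 5.33, Prg3 at 4.05 and Ear6 at 0.17. The summed normalized count of the 10 markers was 24866 to 38211 in WT, 38503 to 49555 in Ahr-KO and 14322 to 38775 in Ahrr-KO, lowest in Ahrr-KO M3 and F3. Alox15 and Prg2 were called lower in WT than in Ahr-KO, and Siglecf, Il5ra, Prg2 and Alox15 lower in Ahrr-KO than in Ahr-KO. Throughout, fewer cells of a type and less RNA per cell cannot be told apart.

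The heat shock and DnaJ genes took a small, variable share of the libraries. Together they held 0.405 to 0.673% of all normalized counts in WT, 0.427 to 0.464% in Ahr-KO and 0.460 to 0.745% in Ahrr-KO. WT F1 and Ahrr-KO F2 held the highest shares of their groups, and Ahr-KO was the most even group. By mean deposited level the leading genes were Hspa8, the constitutive cytosolic HSP70 (12.37), Hsp90b1 and Hspa5, the HSP90 and HSP70 of the endoplasmic reticulum (12.34 and 12.21), Dnaja1, a cytosolic J protein (11.88), and Hspa4, an HSP110 (10.97). Per kilobase of exon, mean normalized counts were 1343 for Hspa8, 1286 for Hsp90b1, 1128 for Hspa5, 724 for the mitochondrial chaperonin Hspd1 and 452 for Dnaja1, down to 3.15 for Dnajc6, the lowest gene past the minimum over all samples.

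**Figure D1:**
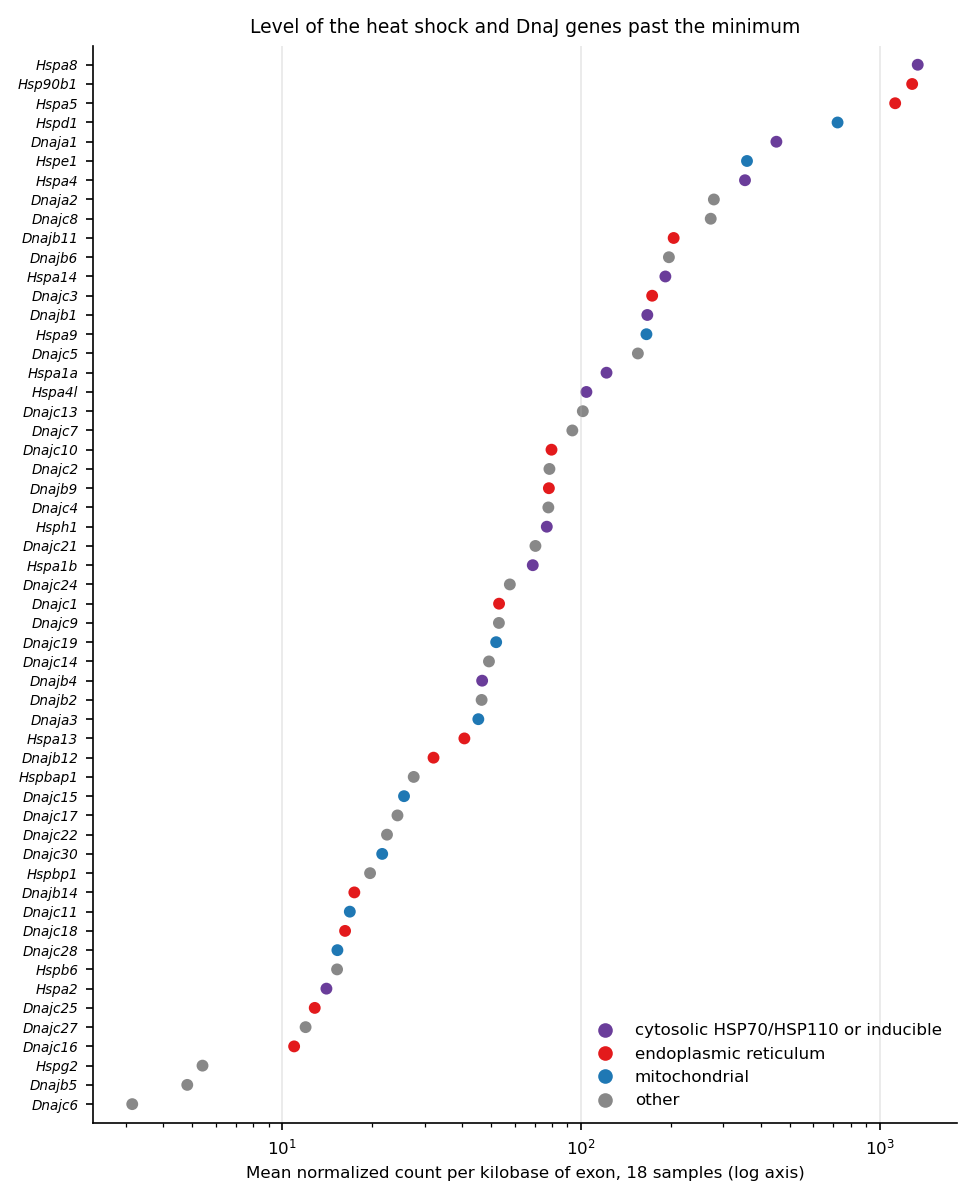
Mean normalized count per kilobase of exon over the 18 samples, on a log axis, for each heat shock or DnaJ gene past the minimum level, coloured by compartment. Hspa8, Hsp90b1 and Hspa5 lie at the top at 1343, 1286 and 1128, and Dnajc6 at the bottom at 3.15.

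Some of the genes varied widely between libraries of the same genotype and sex. From the lowest to the highest sample, 4 genes ranged over 3 units or more: the stress-inducible HSP70 pair Hspa1a (6.52) and Hspa1b (6.02), Hsph1 (4.13) and Dnajb1 (3.94), a J protein that works with them. Their standard deviations within genotype and sex were 1.48, 1.34, 0.99 and 0.95, against 0.13 for Hspa4. Hspa1a and Hspa1b are nearly the same in sequence, so reads may be shared between them and the pair is best read as a unit.

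Hspa1a ranged from 5.85 to 10.20 in WT (median 7.04), from 5.51 to 8.53 in Ahr-KO (median 6.46) and from 5.91 to 12.03 in Ahrr-KO (median 7.13). Hsph1 ranged from 7.74 to 10.54 in WT (median 8.94), from 7.99 to 9.03 in Ahr-KO (median 8.20) and from 8.48 to 11.86 in Ahrr-KO (median 8.60). Hspa8 ranged from 11.52 to 13.23 in WT (median 12.16), from 11.68 to 12.61 in Ahr-KO (median 12.22) and from 12.22 to 14.06 in Ahrr-KO (median 12.44). The same library, a female, was highest in each: WT F1 among WT, Ahr-KO F3 among Ahr-KO and Ahrr-KO F2 among Ahrr-KO, and the genotypes overlapped. Ahrr-KO F2 was the highest of all samples for 11 of the 55 genes past the minimum over all samples, WT F1 for 8 and WT F3 for 7.

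The genes closest to Hsph1 across the 18 samples, after the mean of each genotype and sex was taken off, were Bag3, a co-chaperone outside the rule (r = 0.970, rho = 0.831), Hspa1a (r = 0.964, rho = 0.864), Hspa1b (0.929, 0.840), Hspa8 (0.920, 0.822), Hsp90aa1 (0.904, 0.787), Dctn1 (0.883, 0.717), Brd2 (0.881, 0.858) and Dedd2 (0.866, 0.647). Without Ahrr-KO F2 and WT F1, the libraries farthest from the median of Hsph1, r was 0.946 for Bag3, 0.917 for Hspa1a and 0.741 to 0.851 for the others. Hspa5 had other neighbours: Dhx38 (r = 0.872, rho = 0.802), Zdhhc12 (0.860, 0.765), Pramef8 (0.854, 0.866), Prep (0.849, 0.845), Mettl3 (0.845, 0.814), Pradc1 (0.844, 0.643), Nup210l (0.843, 0.759) and Cdc42bpg (0.837, 0.856). Without WT F2 and WT F3 these r values were 0.539 (Pradc1) to 0.832 (Pramef8). These correlations describe 18 libraries that also differ in depth and cell content.

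Immediate early and stress genes, 24 genes known to rise in warm enzymatic dissociation and outside the rule, were read beside these values. Their mean deposited level was 10.06, 10.12, 9.93, 9.97, 9.79 and 9.77 in WT F1 to F3 and M1 to M3. It was 10.05, 10.35, 10.39, 9.48, 9.60 and 9.89 in Ahr-KO, and 10.22, 10.70, 10.22, 10.24, 9.91 and 9.83 in Ahrr-KO, in the same order. Ahrr-KO F2, the library highest in Hspa1a, was also the highest for this list. Ahr-KO F3, highest of Ahr-KO in Hspa1a, was the highest of Ahr-KO for the list at 10.39. WT F1, highest of WT in Hspa1a, lay at 10.06, next to WT F2 at 10.12, the highest of WT. With genotype and sex taken off, the highest r with the list's mean over 18 samples were 0.692 for Dnajb4 (rho = 0.622), 0.553 for Dnajb1 (0.523), 0.506 for Hspa1b (0.463), 0.495 for Dnajc14 (0.439), 0.493 for Hspa8 (0.505), 0.485 for Dnajb6 (0.534), 0.468 for Hspa1a (0.418), 0.447 for Hsph1 (0.420) and 0.447 for Dnajb9 (0.445). Without Ahrr-KO F2 and M1, the libraries farthest from the list's median, r was lower for each of them, at 0.465, 0.346, 0.371, 0.215, 0.244, 0.281, 0.273, 0.173 and 0.187. The lowest r were -0.790 for Dnajb14 (rho = -0.748, and -0.618 without those libraries), -0.775 for Dnajc2 (-0.831, -0.767), -0.661 for Hspa4 (-0.523, -0.571) and -0.603 for Dnajc21 (-0.602, -0.297). Over all 55 genes, r had a median of 0.015 (-0.790 to 0.692). In summed normalized counts, in which Dusp1 is the most abundant gene (mean 24759), the list held 85187, 93288, 84305, 89755, 76854 and 78243 in WT, in the order F1 to F3, then M1 to M3. It held 100504, 127558, 125078, 58291, 62589 and 90408 in Ahr-KO and 102964, 121127, 78654, 119739, 77605 and 57741 in Ahrr-KO. No gene of the list was at 0 in all samples, and the part of isolation in the members' levels was not tested.

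**Figure D2:**
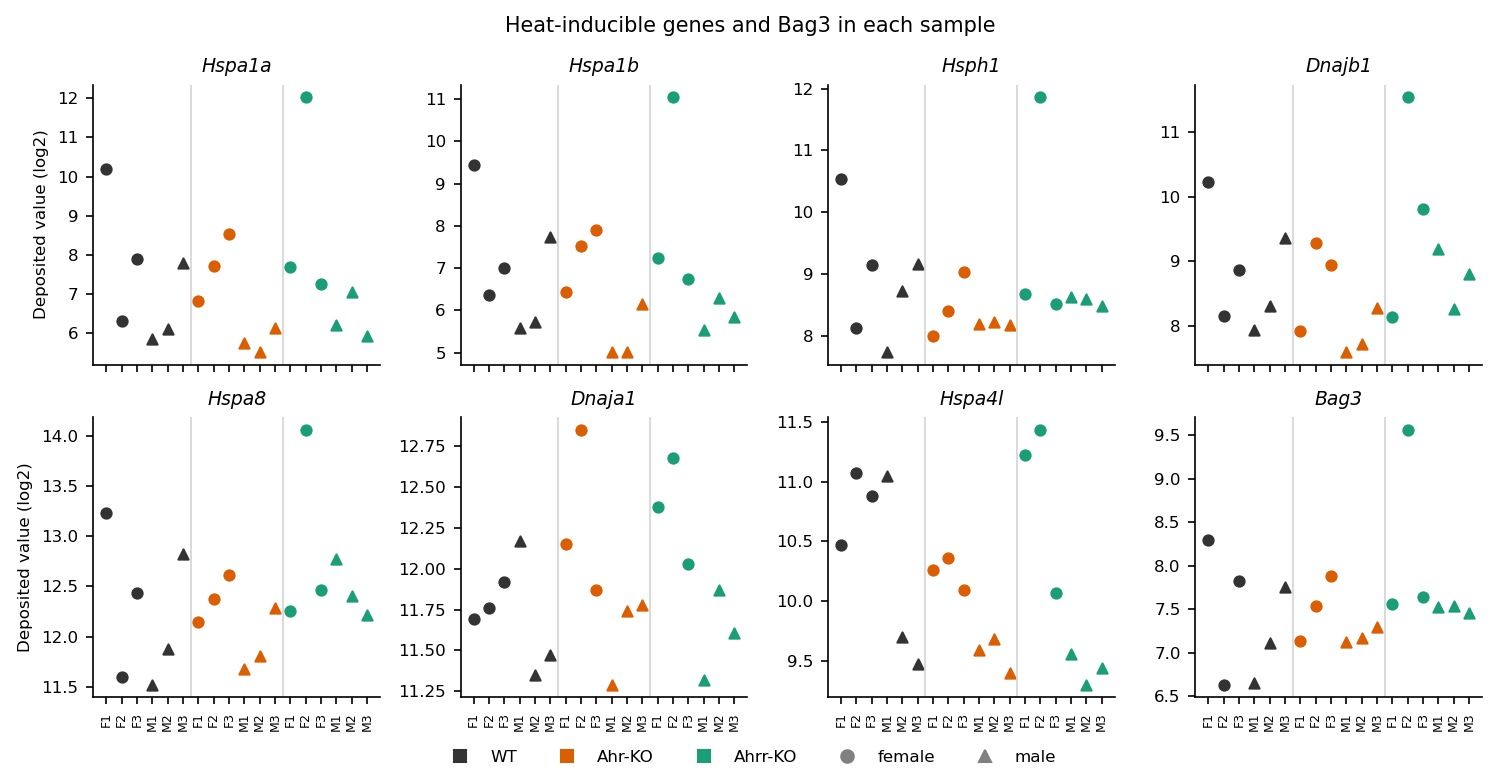
Deposited log2 level of heat-inducible genes and of Bag3 in each sample, coloured by genotype, with circles for females and triangles for males. Ahrr-KO F2 and WT F1 stand above the other samples for Hspa1a, at 12.03 and 10.20, while Hspa4l is low in all males but WT M1.

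WT and Ahr-KO were compared because the study asked about AHR. Higher in WT were Dnajb4, a cytosolic J protein, Hspa13, an HSP70-like ATPase of microsomes, and Dnajc8, a J protein tied to splicing. No heat shock or DnaJ gene was called lower in WT. In all, 3 of 55 genes tested were called (5.45%), against 8.84% of all 11346 genes tested, so the share of called genes was not above the background.

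Dnajb4 (gene ID 67035) ranged from 8.90 to 9.53 in WT (median 9.11), from 8.16 to 8.81 in Ahr-KO (median 8.37) and from 7.98 to 9.66 in Ahrr-KO (median 8.82). All 6 WT samples lay above the highest Ahr-KO sample, while Ahrr-KO spanned both groups. The difference between WT and Ahr-KO was 0.72 (SE 0.11, 95% interval 0.48 to 0.96, adjusted p = 0.000656 from limma), a ratio of 1.77 in mean normalized count. Among its alternatives the adjusted p ranged from 0.000218 to 0.117, and it missed the threshold in females only (difference 0.63, adjusted p = 0.117).

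Hspa13 (gene ID 110920) ranged from 8.28 to 8.91 in WT (median 8.60), from 7.68 to 8.45 in Ahr-KO (median 8.02) and from 8.003 to 8.72 in Ahrr-KO (median 8.59). Of the WT samples, 4 of 6 lay above the highest Ahr-KO sample. The difference was 0.56 (SE 0.13, 95% interval 0.29 to 0.83, adjusted p = 0.0116, range over alternatives 0.00508 to 0.183), a ratio of 1.61. It missed the threshold in females only (0.183), in males only (0.128) and without WT F3 and Ahr-KO F3, the libraries with most genes detected, a setting chosen after seeing the data (0.0678).

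Dnajc8 (gene ID 68598) ranged from 9.42 to 9.96 in WT (median 9.74), from 9.21 to 9.39 in Ahr-KO (median 9.33) and from 9.22 to 9.88 in Ahrr-KO (median 9.63). WT and Ahr-KO did not overlap. The difference was small, 0.39 (SE 0.11, adjusted p = 0.0321, range over alternatives 0.00356 to 0.334), a ratio of 1.36. The call was lost on leaving out WT F2 (adjusted p = 0.0569), M1 (0.0616) or M2 (0.0685), or Ahr-KO F1 (0.0663), F3 (0.0659), M1 (0.0567), M2 (0.0620) or M3 (0.0714). It was also lost with no minimum (0.0578), with samples centred on the median (0.37, adjusted p = 0.0657), with all 18 samples in the fit (0.0944), in females only (0.33, adjusted p = 0.334), in males only (0.45, adjusted p = 0.193) and without WT F3 and Ahr-KO F3 (0.0883).

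Most of the other genes leaned the same way without passing the test. Of the 55 genes, 44 had a positive difference (80.0%, against 50.8% of all genes), with a median of 0.10 against 0.00. The 11 heat-inducible genes, of which 10 were tested, had a median of 0.56 with 9 of 10 positive, and 0.26 without WT F1. They are Hspa1a, Hspa1b, Hsph1, Dnajb1, Dnaja1, Hspa8, Hspd1, Hspe1, Hspa4l, Dnajb4 and Hspb1, which was not tested. Some of them also count among the cytosolic or mitochondrial genes below. The 8 cytosolic HSP70 and HSP110 genes tested were all positive (median 0.41), with 0 called in limma, as were 12 of 13 genes of the endoplasmic reticulum (median 0.14) and 8 of 9 mitochondrial genes (median 0.19). Without WT F1 the cytosolic median was 0.25 with 7 of 8 positive and the mitochondrial median 0.07, and the median of the endoplasmic reticulum was 0.07 without Ahr-KO F1 or WT F3. Medians by J-protein type were 0.13 (A), 0.04 (B) and 0.07 (C). The chaperonin Hspd1 differed by 0.66 (adjusted p = 0.0633, 4 of 6 WT samples above the highest Ahr-KO sample), Hspa4l by 0.54 (adjusted p = 0.117, 4 of 6) and Hspa4 by 0.25 (adjusted p = 0.124, 5 of 6). Hspa1a differed by 0.62, with a 95% interval of -0.45 to 1.70. Hspa5 differed by 0.18 (-0.18 to 0.54), Hsp90b1 by 0.04 (-0.25 to 0.33) and Dnaja1 by -0.22 (-0.61 to 0.18). Without WT M1 the number of genes called was 5, with Dnajc3, Dnajc9 and Hspd1 added and Dnajc8 lost.

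Of the 24 stress genes, Atf3, a stress transcription factor, was called higher in WT (1.42, adjusted p = 3.40e-06, no overlap) and Nr4a1, an immediate early receptor gene, lower (-0.92, adjusted p = 0.0269). The list's median difference was -0.01, with 11 of 24 positive. Goblet cell markers had a positive difference for 7 of 7 genes, 6 of them called, and their sums are given per sample with the comparison of Ahrr-KO and Ahr-KO. The part of either list in these differences was not tested.

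**Figure D3:**
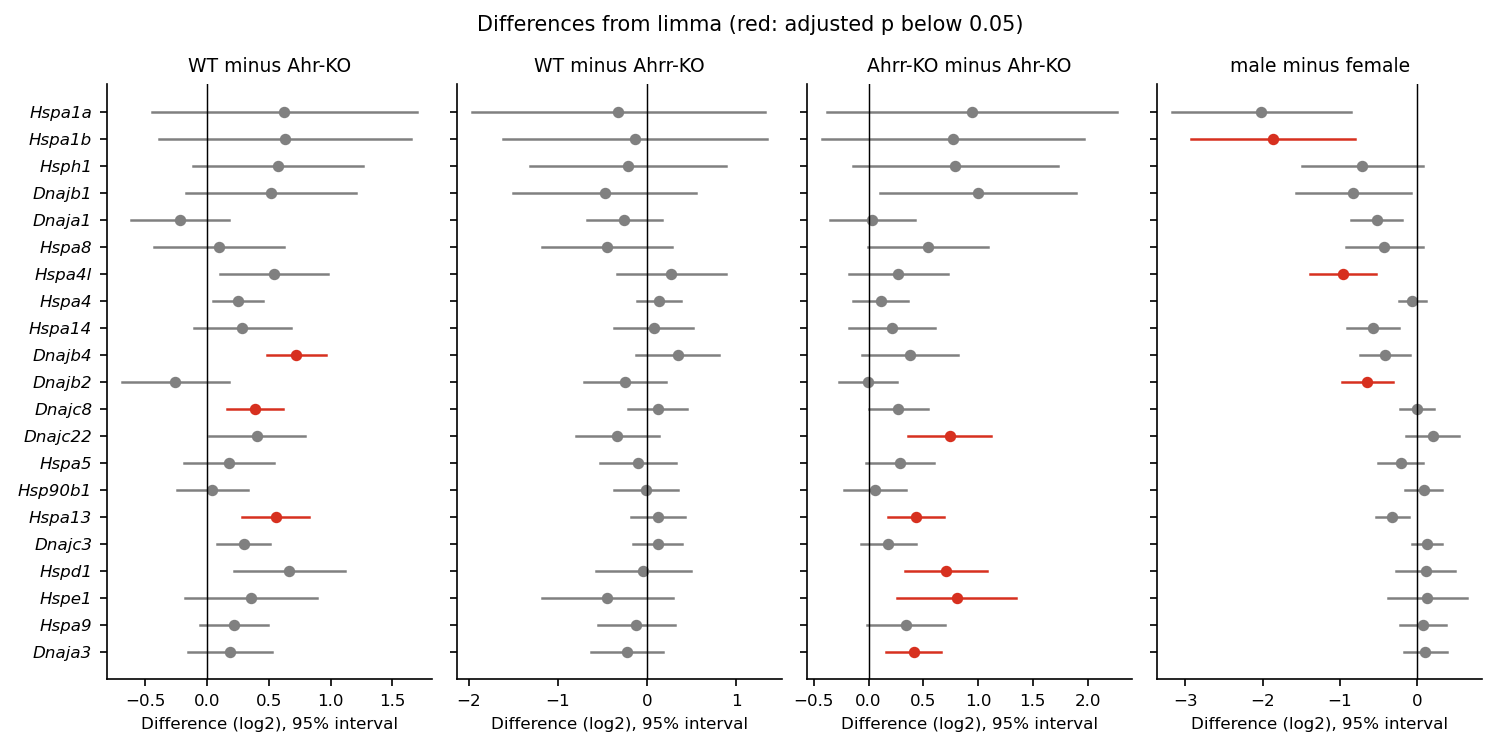
Difference in deposited log2 level with its 95% interval from limma for named heat shock and DnaJ genes in each comparison, red where the adjusted p was below 0.05. The interval of Hspa1a is the widest of the plotted genes in each comparison, and that of Hspa1b the next.

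WT samples were compared with those labelled Ahrr-KO, a label that names the gene of the repressor. No heat shock or DnaJ gene passed the test. The count was 0 of 55 in limma, against 0.0779% of all 11546 genes tested (9 genes, all lower in WT), with 1 gene, Dnajc18, at an unadjusted p under 0.05 and 0 called by voom. Dnajc18, a J protein of the endoplasmic reticulum membrane, ranged from 7.04 to 7.88 in WT (median 7.25) and from 6.72 to 7.51 in Ahrr-KO (median 6.90). Its difference was 0.39 (SE 0.18, adjusted p = 0.665, range over alternatives 0.374 to 1). Dnajc2, a ribosome-bound J protein, differed by 0.31 (SE 0.16, adjusted p = 0.671) and Dnajc10, a reductase of the endoplasmic reticulum, by -0.23 (SE 0.13, adjusted p = 0.671). Their groups overlapped, with Dnajc2 at 8.71 to 9.11 in WT and 8.0002 to 8.98 in Ahrr-KO, and Dnajc10 at 8.59 to 8.99 and 8.69 to 9.29.

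Differences were balanced, with 28 of 55 positive (50.9%, against 48.3% of all genes) and a median of 0.00. The heat-inducible genes had a median of -0.23 with 2 of 10 positive, but 0.12 without Ahrr-KO F2 and 0.07 without WT F2, so that the sign rested on single libraries. For Hspa1a the 95% interval was -1.97 to 1.32, too wide to show a difference of several-fold either way. The mitochondrial genes had a median of -0.11 and the genes of the endoplasmic reticulum 0.08. Of the stress list, 21 of 24 were negative with a median of -0.22, and 0 were called in limma.

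Samples labelled Ahrr-KO and Ahr-KO were compared directly. The mitochondrial chaperonin pair Hspd1 and Hspe1 (HSP60 and its lid HSP10) and the mitochondrial J protein Dnaja3 were higher in Ahrr-KO, as were the membrane J protein Dnajc22 and again Hspa13. In all 5 of 55 genes were called (9.09%), 5 higher and 0 lower in Ahrr-KO, against 14.9% of all 11474 genes tested, so here too the share was below the background. This comparison shares its Ahr-KO samples with that of WT and Ahr-KO, where the differences of the same genes were 0.66 (Hspd1), 0.36 (Hspe1), 0.19 (Dnaja3), 0.40 (Dnajc22) and 0.56 (Hspa13).

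Hspd1 (gene ID 15510) ranged from 9.98 to 10.64 in Ahr-KO (median 10.49), from 10.51 to 11.66 in Ahrr-KO (median 11.11) and from 10.48 to 11.87 in WT (median 11.03). All Ahrr-KO samples but F1 lay above the highest Ahr-KO sample. The difference was 0.71 (SE 0.18, 95% interval 0.33 to 1.08, adjusted p = 0.0189, range over alternatives 0.00667 to 0.354), a ratio of 1.69, and it was 0.64 (adjusted p = 0.0514) without Ahr-KO F1. Within a sex it was not called, at 0.72 in females (adjusted p = 0.354) and 0.69 in males (adjusted p = 0.0723). Hspe1 (gene ID 15528) ranged from 8.49 to 9.12 in Ahr-KO (median 8.62), from 8.46 to 10.41 in Ahrr-KO (median 9.61) and from 8.05 to 9.87 in WT (median 9.24). Of the Ahrr-KO samples, 4 of 6 lay above the highest Ahr-KO sample and F1 below the lowest. The difference was 0.80 (SE 0.25, adjusted p = 0.0470, range over alternatives 0.00804 to 0.602), a ratio of 2.05. The Hspe1 call was lost on leaving out any Ahr-KO sample but F3 (adjusted p = 0.0882 for F1, 0.0889 for F2, 0.0974 for M1, 0.0878 for M2 and 0.107 for M3), or Ahrr-KO F2 (0.0707), F3 (0.0849), M1 (0.0899) or M3 (0.103). Voom (0.93, adjusted p = 0.0517), no minimum (0.0726), all 18 samples in the fit (0.0744), no sex covariate (0.0671) and females only (0.53, adjusted p = 0.602) lost it as well. The exons of Hspd1 and Hspe1 overlap over 112 bases on opposite strands, and since the strand of the reads is not stated, counts there are uncertain.

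Dnajc22 (gene ID 72778) ranged from 5.78 to 6.56 in Ahr-KO (median 6.05), from 6.18 to 7.17 in Ahrr-KO (median 7.08) and from 6.10 to 7.17 in WT (median 6.46). Ahrr-KO F3, M1, M2 and M3 lay close together above all Ahr-KO samples, while F1 and F2 lay within their range. The difference was 0.74 (SE 0.18, adjusted p = 0.0152, range over alternatives 0.00581 to 0.510), a ratio of 3.09 at a low level of 20.6 normalized counts in Ahr-KO. In females only it was 0.58 (adjusted p = 0.510). Dnaja3 (gene ID 83945) ranged from 7.41 to 7.85 in Ahr-KO (median 7.64), from 7.63 to 8.44 in Ahrr-KO (median 8.02) and from 7.36 to 8.38 in WT (median 7.83). Of the Ahrr-KO samples, 5 of 6 lay above all of Ahr-KO. The difference was 0.41 (SE 0.12, adjusted p = 0.0329, range over alternatives 0.0137 to 0.562), a ratio of 1.48. The Dnaja3 call was lost on leaving out Ahr-KO F1 (adjusted p = 0.0745), F2 (0.0534), M1 (0.0814), M2 (0.0641) or M3 (0.0648), or Ahrr-KO F3 (0.0725), M1 (0.0535) or M3 (0.0799). Most alternatives lost it too: voom (0.58, adjusted p = 0.0552), no minimum (0.0551), samples centred on the median (0.35, adjusted p = 0.0508), all 18 samples in the fit (0.0884), no sex covariate (0.0777), females only (0.33, adjusted p = 0.562) and males only (0.50, adjusted p = 0.108).

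Hspa13 lay above all of Ahr-KO in 4 of 6 Ahrr-KO samples. The difference between the groups was 0.43 (SE 0.12, adjusted p = 0.0289 from limma, range over alternatives 0.0221 to 0.330), a ratio of 1.45. Its call was lost on leaving out Ahr-KO F1 (adjusted p = 0.0704), M1 (0.0738) or M2 (0.0502), or Ahrr-KO F3 (0.0598) or M1 (0.0507). The same held for samples centred on the median (0.37, adjusted p = 0.0608), quantile normalization (0.37, adjusted p = 0.0546), no sex covariate (0.0855), females only (0.49, adjusted p = 0.330) and males only (0.38, adjusted p = 0.224). The number of genes called was 8 without Ahrr-KO F1, 3 without Ahr-KO F2, Ahr-KO M3 or Ahrr-KO M3, 2 without Ahr-KO M1, Ahr-KO M2, Ahrr-KO F3 or Ahrr-KO M1, and 1 without Ahr-KO F1.

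Among these 12 samples Hspa1a, Hspa1b, Hsph1, Dnajb1, Hspa8, Hspa4l and Dnajb4 were highest in Ahrr-KO F2, Hspd1 in Ahrr-KO M3, Hspe1 in Ahrr-KO M1 and Dnaja1 in Ahr-KO F2. The heat-inducible genes had a median difference of 0.74, with 10 of 10 positive and 2 called, and 0.25 without Ahrr-KO F2. The called genes were Hspd1 and Hspe1, which are counted again among the mitochondrial genes. Dnajb1 differed by 0.996 (adjusted p = 0.115, 2 of 6 Ahrr-KO samples above all of Ahr-KO), Hspa1a by 0.95 (adjusted p = 0.308, 1 of 6), Hsph1 by 0.79 (adjusted p = 0.225, 1 of 6) and Hspa8 by 0.55 (adjusted p = 0.155, 2 of 6). The 8 cytosolic HSP70 and HSP110 genes were all positive (median 0.41, 0 called in limma, and 0.23 without Ahrr-KO F2), with 8 of 9 mitochondrial genes (median 0.18, 3 called) and 9 of 13 of the endoplasmic reticulum (median 0.11). J proteins of type C had a median of -0.05. In all 36 of 55 genes were positive (65.5%, against 49.6% of all genes), with a median of 0.11 against 0.00. Of the stress list, Atf3 (1.88, adjusted p = 1.24e-06, no overlap) and Socs3, a feedback inhibitor of cytokine signalling (0.65, adjusted p = 0.00811), were called higher in Ahrr-KO and Nr4a1 lower (-0.70, adjusted p = 0.0496), with a list median of 0.23.

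**Figure D4:**
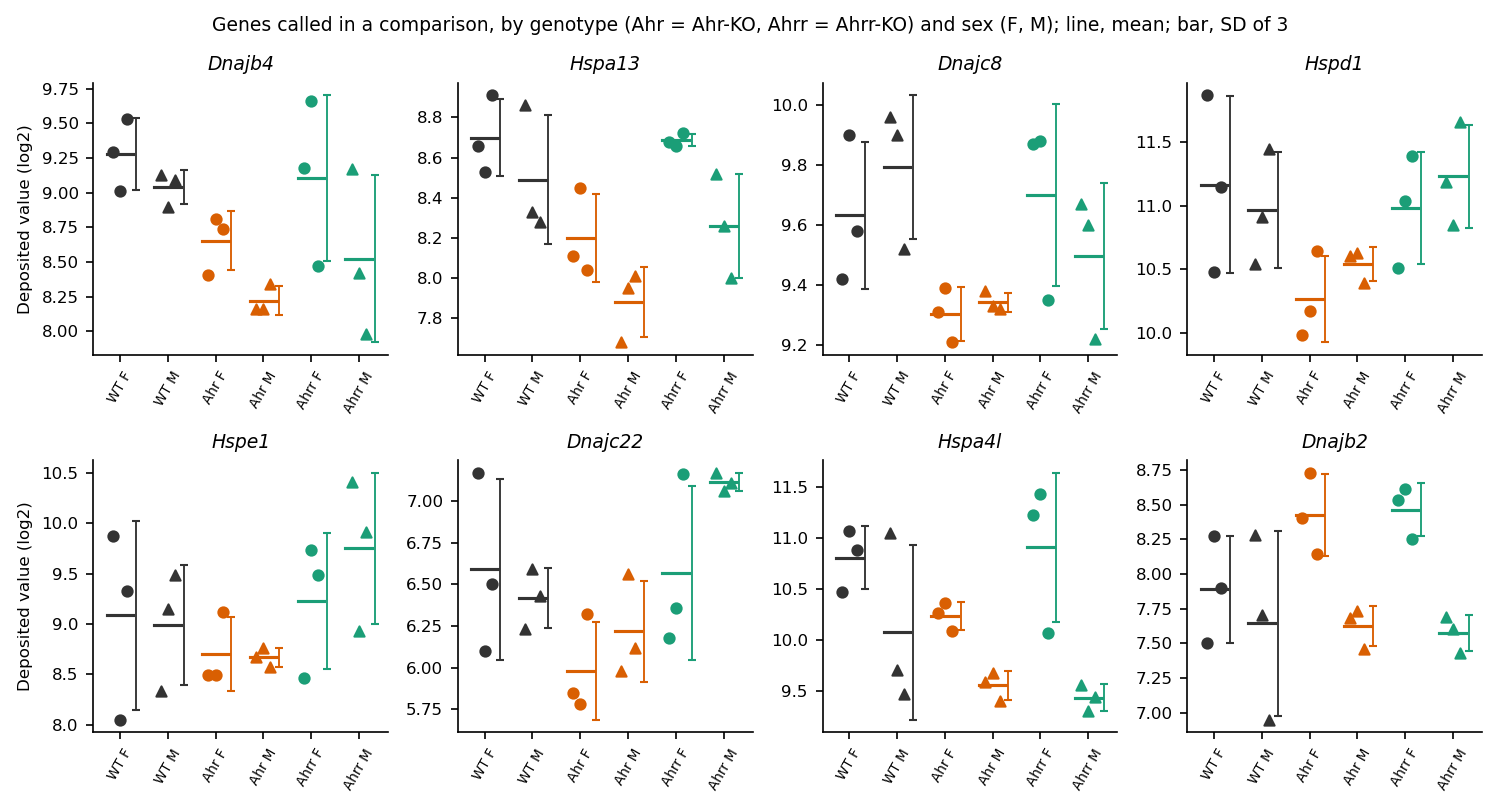
Deposited log2 level in each sample for genes called in a comparison, by genotype and sex, with a line at the mean and a bar for the SD of 3 samples. Dnajb4 and Dnajc8 do not overlap between WT and Ahr-KO, and Hspa4l is lower in males apart from WT M1.

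Markers of intestinal epithelium moved with some of the called genes. In the order F1 to F3, then M1 to M3, the summed normalized count of 10 enterocyte markers, led by Sis (mean 2575), was 10285, 2839, 4588, 5051, 4640 and 7230.0 in WT. It was 2467, 1763, 5217, 5402, 5906 and 3755 in Ahr-KO and 3362, 2838, 19645, 20776, 8752 and 19257 in Ahrr-KO. Ahrr-KO F3, M1 and M3 were the highest of all samples. The 7 goblet markers, led by the mucin Muc2 (mean 3757), held 20576, 7328, 10715, 7886, 14255 and 11231 in WT, 5780.3, 5186, 4998, 6737, 5443 and 6104 in Ahr-KO, and 10718, 4206, 30471, 22521, 22137 and 45624 in Ahrr-KO. The 6 Paneth cell markers, led by Lyz1 (mean 6945), held 6985, 6651, 3552, 1773, 5164 and 14674 in WT, 6450.4, 7800.8, 8428, 2328, 1403 and 6726 in Ahr-KO, and 11377, 8312, 20325, 69850, 14984 and 33421 in Ahrr-KO. The gate for CD11b and SiglecF would remove intact epithelial cells, yet none of these markers was at 0 in all samples. Called higher in Ahrr-KO than Ahr-KO were 2 of 10 enterocyte markers (Epcam and Sis; median 0.98), 6 of 7 goblet markers (median 1.49) and 6 of 6 Paneth markers (median 1.89). Called higher in WT than Ahr-KO were 0 of 10 in limma (median 0.14), 6 of 7 (median 0.90) and 0 of 6 (median 0.43), and between WT and Ahrr-KO and between the sexes none was called. Without calls, between WT and Ahrr-KO 10 of 10, 7 of 7 and 6 of 6 were negative (medians -0.83, -0.67 and -1.63), and between males and females 10 of 10 enterocyte markers (median 0.54), 7 of 7 goblet markers (median 0.53) and 3 of 6 Paneth markers (median 0.03) were positive.

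After genotype and sex were taken off, the log2 sum of enterocyte and goblet markers had r = 0.884 with Hspg2 (rho = 0.835), 0.786 with Hspa9 (0.802), 0.774 with Dnajc22 (0.769), 0.677 with Hspd1 (0.761), 0.664 with Dnaja3 (0.709) and 0.437 with Hspe1 (0.554) over 18 samples. Without Ahrr-KO F3 and F2, the libraries farthest from its median, r was 0.787, 0.799, 0.761, 0.912, 0.748 and 0.819. Outside the mitochondrial genes, Dnajc3 (r = 0.570, rho = 0.581, and 0.666 without those libraries), Dnajb12 (0.547, 0.612, 0.621) and Hspb6 (0.498, 0.406, 0.557) also lay above Hspe1. The other mitochondrial genes had r = 0.560 (Dnajc30, 0.733 without those libraries), 0.286 (Dnajc15, 0.209), 0.052 (Dnajc19, -0.158), -0.064 (Dnajc11, 0.362) and -0.281 (Dnajc28, 0.454). For Dnajc19, Dnajc11 and Dnajc28 the sign changed. Negative relations were found, among others, for Dnajc8 (r = -0.815, rho = -0.804, and -0.785 without those libraries), Dnajb6 (-0.758, -0.723, -0.640), Hspa4l (-0.714, -0.756, -0.509) Hspbap1 (-0.702, -0.750, -0.812), Dnajb4 (-0.575, -0.418, -0.135), Dnajb2 (-0.548, -0.723, -0.640) and Hspa13 (-0.188, -0.377, -0.382). For Hspa1b (-0.250, 0.031, 0.566), Hsph1 (-0.210, 0.164, 0.771) and Hspa1a (-0.240, 0.024, 0.607) the sign changed without them. Over the 55 genes the median r was 0.05 (-0.815 to 0.884). Without the 3 Ahrr-KO libraries highest in these markers (F3, M1 and M3), a setting chosen after seeing the data, 1 gene was called, Dnajc8, among 626 of all genes. In that setting Hspd1 differed by 0.43 (adjusted p = 0.145), Hspe1 by 0.34 (adjusted p = 0.453), Dnajc22 by 0.50 (adjusted p = 0.144), Dnaja3 by 0.25 (adjusted p = 0.320) and Hspa13 by 0.44 (adjusted p = 0.0797). The mitochondrial median was 0.08, against 0.18 with all libraries, and Hspa13 differed by as much as with all libraries. The part of epithelial RNA in these differences was not tested.

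**Figure D5:**
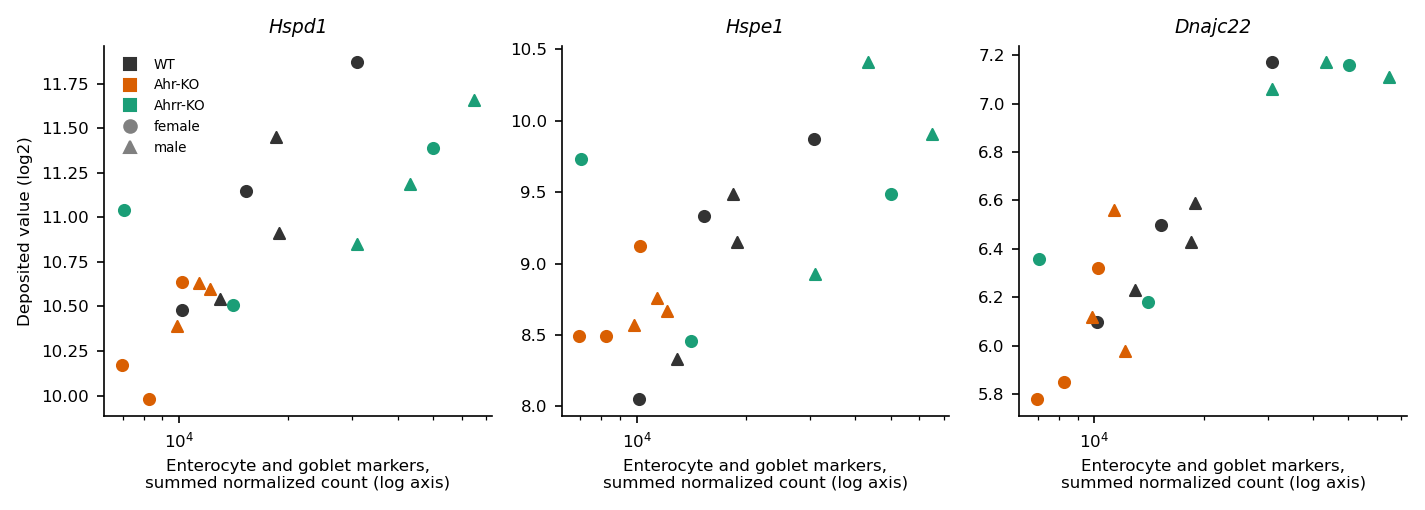
Deposited log2 level of Hspd1, Hspe1 and Dnajc22 in each sample against the summed normalized count of enterocyte and goblet markers on a log axis, coloured by genotype, with circles for females and triangles for males. Ahrr-KO F3, M1 and M3 lie at the right, at sums of 50116, 43296 and 64880.4.

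Males and females were compared over all 18 samples with genotype in the model. The HSP110 gene Hspa4l, the neuronal J protein gene Dnajb2 and the inducible HSP70 gene Hspa1b were lower in males. In all 3 of 55 genes were called (5.45%), 0 higher and 3 lower in males, against 3.06% of all 11468 genes tested. The share is above the background but rests on 3 genes.

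Hspa4l (gene ID 18415) ranged from 10.07 to 11.43 in females (median 10.47) and from 9.30 to 11.05 in males (median 9.56). Of the males, 8 of 9 lay below the lowest female, and WT M1 at 11.05 lay among the highest samples. The difference was -0.96 (SE 0.20, adjusted p = 0.0157), and females had 1.98 times the mean normalized count. Hspa4l passed the threshold in all 12 alternatives and without each of the 18 libraries, with an adjusted p of 0.000797 to 0.0403.

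Dnajb2 (gene ID 56812) ranged from 7.50 to 8.73 in females (median 8.27) and from 6.95 to 8.28 in males (median 7.68), with 3 of 9 males below the lowest female. The difference was -0.64 (SE 0.16, adjusted p = 0.0323, range over alternatives 0.00196 to 0.0813), and females had 1.79 times the mean normalized count. The call was lost with no minimum (0.0669), without the 3 libraries highest in enterocyte and goblet markers (-0.60, adjusted p = 0.0711) and on leaving out WT F2 (0.0690) or M3 (0.0740), Ahr-KO F1 (0.0591), F2 (0.0813), M1 (0.0653), M2 (0.0592) or M3 (0.0635), or Ahrr-KO F1 (0.0609), F2 (0.0681), M2 (0.0557) or M3 (0.0677).

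Hspa1b (gene ID 15511) ranged from 6.37 to 11.04 in females (median 7.23) and from 5.02 to 7.74 in males (median 5.72). Again 8 of 9 males lay below the lowest female, the exception being WT M3. The difference was -1.87 (SE 0.51, adjusted p = 0.0491, range over alternatives 0.0149 to 0.105), and females had 14.2 times the mean normalized count, a ratio that was 5.96 without Ahrr-KO F2, 3.28 without Ahrr-KO F2 and WT F1, and 38.2 without WT M3. Voom (-3.94, adjusted p = 0.0949), no minimum (0.105), no trend (0.0505), no genotype covariate (0.0669), and leaving out the 2 libraries with most genes detected (-1.91, adjusted p = 0.0814) or the 3 highest in enterocyte and goblet markers (-1.80, adjusted p = 0.0722) each lost the call. So did leaving out WT F1 (0.0517), M1 (0.0566) or M2 (0.0804), Ahr-KO F1 (0.0601), F2 (0.101), F3 (0.0857), M1 (0.101), M2 (0.0950) or M3 (0.0614), or Ahrr-KO F1 (0.0577), F2 (0.0644), M1 (0.0766), M2 (0.0713) or M3 (0.0904). Its near twin Hspa1a, which just missed the threshold, ranged from 6.30 to 12.03 in females (median 7.70) and from 5.51 to 7.79 in males (median 6.10), with a difference of -2.02 (SE 0.55, adjusted p = 0.0524) and 7 of 9 males below the lowest female. Without Ahrr-KO F2 and WT F1, the libraries highest in Hspa1a and chosen after seeing the data, Hspa1b differed by -1.17, and 5 genes were called, Hspa1a and Hspa14 among them.

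The cytosolic HSP70 and HSP110 genes had a median of -0.64 with 8 of 8 negative, 2 of them called (-0.41 without the 2 libraries highest in Hspa1a), while the median was 0.09 for the endoplasmic reticulum and 0.11 for the mitochondrial genes. The heat-inducible genes had a median of -0.62 with 2 of 10 positive, and -0.36 without those 2 libraries. Dnaja1 differed by -0.53 (adjusted p = 0.0754, 5 of 9 males below the lowest female), Hspa14 by -0.57 (adjusted p = 0.0614) and Dnajb1 by -0.83 (adjusted p = 0.214, 2 of 9). Over all 55 genes, 26 were positive (47.3%, against 53.1% of all genes) and the median was -0.01. With voom, which scales the libraries in another way, 2 genes were called, the median of all genes moved to 0.17, and 50.4% of all called genes were higher in males against 19.7% on the deposited values. The number of genes called was 5 without WT M1 or Ahrr-KO F3, and 1, Hspa4l, without Ahr-KO F1, F2, M1, M2 or M3 or Ahrr-KO F1, F2, M2 or M3.

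Of the 24 genes of the stress list, 7 were called lower in males and 0 higher. The difference was negative for 21 of 24, with a median of -0.37 against 0.01 for all genes. Of those called, the largest differences were of Gadd45b, a growth arrest gene (-1.42, adjusted p = 0.00484), Nr4a1 (-0.91), Nfkbia, the inhibitor of NF-kB (-0.85, adjusted p = 0.00798), Ppp1r15a, which restores translation after stress (-0.84, adjusted p = 0.00792), and Jun (-0.77, adjusted p = 0.0166). The other called genes, named after their values were seen, were Atf3 (-0.75, adjusted p = 0.00294) and Ier3 (-0.59). Egr1, named in the same way, was not called and had a positive difference (0.79, adjusted p = 0.315). Enterocyte and goblet markers, with which Hspa4l and Dnajb2 had negative r, had positive differences here as given above, and their part in the difference between the sexes was not tested. The order in which mice of each sex were processed is not given, and the part of isolation in the difference between the sexes was not tested.

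Whether the genotype difference depended on sex was tested by an interaction term. For WT and Ahr-KO 0 of 55 genes were called in limma, against 0% of all genes, with 1 at an unadjusted p under 0.05 and 0 called by voom. For WT and Ahrr-KO the count was likewise 0 of 55, against 0% of all genes, with 0 at an unadjusted p under 0.05 and 0 by voom. For Hspa1a the interaction had an interval of -1.87 to 2.56 and of -2.28 to 4.39. Even a large dependence of the Hspa1a difference on sex could thus not be seen at its spread. That spread was the largest of the 55 genes (standard deviation 1.48 within genotype and sex), and intervals of the other genes are not given here.

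Genes that work with these chaperones but fall outside the rule showed few calls. Of 26 cytosolic partners, 22 were tested. Hsp90aa1, the inducible HSP90, was higher in WT than Ahr-KO (0.63, adjusted p = 0.00615, 4 of 6 WT samples above all of Ahr-KO), and Unc45a, an HSP90 co-chaperone, was among the partners lower in males (-0.40, adjusted p = 0.0434). The partners' medians were 0.01 (WT minus Ahr-KO), -0.08 (WT minus Ahrr-KO), 0.16 (Ahrr-KO minus Ahr-KO) and -0.06 (male minus female), against 0.00, -0.01, 0.00 and 0.01 for all genes. The cytosolic chaperonin TRiC and prefoldin (14 genes) had 0 called in limma, with medians of 0.05, -0.07, 0.12 and 0.08 in the same order. The mitochondrial import and folding genes (11) likewise had 0 called, with medians of 0.00, -0.18, 0.14 and 0.17. Of 21 genes of endoplasmic reticulum stress and folding, 20 were tested. Xbp1 and Ddit3, transcription factors of the unfolded protein response, were higher in Ahrr-KO than Ahr-KO (0.57, adjusted p = 0.0203, and 0.44, adjusted p = 0.0259), and Atf4 was lower in males (-0.48, adjusted p = 0.0345). This list's medians were 0.13, -0.15, 0.28 and 0.03.

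Markers of other cell types, most of which the CD11b beads and the gate would remove, were read by the same test. Pancreatic acinar genes, led by Ctrb1 (mean 228), summed to 70.2 to 4224 in WT, 29.3 to 514.6 in Ahr-KO and 31.2 to 2054 in Ahrr-KO. Of 7 tested, Cela2a, Ctrb1 and Prss2 were called higher in WT than Ahr-KO, with none called elsewhere. The study itself reports proteases of a pancreatic secretion pathway, and the goblet marker Tff3, as increased in WT eosinophils. Which cells held these transcripts was not tested here. The 10 macrophage and dendritic markers, led by Itgax (mean 7552), went both ways. Between WT and Ahr-KO, Cd68, Itgax and Csf1r were called, 1 higher and 2 lower in WT, with 5 of 9 tested positive. Between Ahrr-KO and Ahr-KO, Cd68, C1qb and Itgax were called, 2 higher and 1 lower in Ahrr-KO, with 7 of 10 positive. H2-Ab1 was higher in males. The 7 endothelial markers were nearly all Pecam1 (mean 2610 of a mean list sum of 2737). Pecam1 was called higher in WT than Ahr-KO, with 2 markers tested, 1 positive and 1 negative. Cdh5 and Eng were called higher in Ahrr-KO than Ahr-KO, with 6 of 6 tested positive. Of the fibroblast, plasma and B cell and dividing cell markers, led by Col3a1, Jchain and Mki67, Col1a2, Jchain, Sdc1, Top2a, Ccnb1 and Birc5 were higher in Ahrr-KO than Ahr-KO, and Top2a was higher in WT than Ahr-KO. The neutrophil genes S100a8 and S100a9 were higher in Ahrr-KO than in either other genotype, Cxcr2 was lower in WT than Ahr-KO and Ltf lower in males. Of the mast cell markers Kit was lower in males, and of the T and innate lymphocyte markers the 1 gene tested was not called in any comparison. None of these lists had a gene at 0 in all samples. Their part in the chaperone differences was not tested.

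With a mean over the 18 samples below the minimum were 17 of 72 genes, none of them tested in a comparison but Dnajb13: Dnaja4, Dnajb13, Dnajb3, Dnajb7, Dnajb8, Dnajc12, Dnajc5b, Dnajc5g, Hspa12a, Hspa12b, Hspa1l, Hspb1, Hspb11, Hspb2, Hspb7, Hspb8 and Hspb9. Each had counts in some sample. They hold most of the small heat shock proteins, of which 1 gene of 6 in the table was tested. Hspb1, the small heat shock protein HSP27, ranged from 5.02 to 5.997 in WT, 5.26 to 5.68 in Ahr-KO and 5.70 to 6.08 in Ahrr-KO, near a count of 0. Of the genes that match the rule by letters only, Hspg2 had a mean of 6.97 and differed by 0.64 between Ahrr-KO and Ahr-KO (adjusted p = 0.0787), Hspbap1 had a mean of 8.27, and Hspb11 one of 5.87. The exons of 29 of the 72 genes overlap those of another gene, and their counts carry that uncertainty.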

How the data were processed

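RNA of 18 sorted samples was sequenced. Per the submitters' notes, reads were aligned with STAR 2.5.2, counted with RSEM 1.3.0 and handled with DESeq2 in R 4.0.3. The deposited values are log2 values after a variance-stabilizing transformation, from which counts were recovered (100.0% whole within 0.0001). Pairs of genotypes were fitted with limma 3.58.1 (trend, sex as covariate) in R 4.3.3, and the sexes over all samples with genotype, with Benjamini-Hochberg adjustment over all genes at least 1 above the lowest value. Alternatives were voom, other minimums (none, 3), centring, quantile normalization, no trend, sample weights, log2 of normalized counts plus 1, other covariates or samples, a replicate block and each library left out. The fit was run on simulated counts with known changes. These were drawn for each gene independently, without outlying libraries or differing cell content, so they do not vouch for the calls made here. Tables used pandas 2.3.3, numpy 2.4.6 and scipy 1.17.1 under Python 3.11.15, and plots used matplotlib 3.10.9. Members, role groups, pathway, stress and 13 marker lists were chosen with earlier results of these data known. Named were the inducible genes with Hspa5, Hsp90b1, Hspa9 and Hspa4, the 5 highest by level and per kilobase, the 5 most variable, per comparison the called members or the 3 with the smallest p, called list genes up to 5, the 8 genes most like Hsph1 and Hspa5, and Hspg2, Hspb11 and Hspbap1. Other genes were named after their values were seen.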

Additional observations from a re-analysis of the deposited data

Results flagged for a closer look

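In groups of 6 samples of a genotype, a sample far from the others was sought for the 26 named genes. Chance alone marks about 1 in 20 groups, or 3.9 of the 78 groups tested, and 6 were found, 4 of them in the same library. In Ahrr-KO F2 the deposited level of Hspa1a was 12.03 (next 7.68), of Hspa1b 11.04 (next 7.23), of Hsph1 11.86 (next 8.68) and of Hspa8 14.06 (next 12.77), each far above the other Ahrr-KO samples. Hsp90b1 was low in Ahr-KO F2, at 12.01 (next 12.32), and Hspbap1 was high in WT F2, at 9.20 (next 8.25). Hspa1a, Hspa1b, Hsph1 and Hspa8 varied together across samples, so their flags are not independent. The 6 found can thus not be weighed against 3.9, and each group held both sexes. The source of these values was not tested.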

How the results depend on the processing

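No called difference reversed under any setting tried. The median of the heat-inducible genes between WT and Ahrr-KO changed sign, from -0.23 to 0.12 without Ahrr-KO F2 and 0.07 without WT F2. Hspa4l between the sexes passed the threshold in all 12 alternatives and without each of the 18 libraries.

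Of 55 genes, 3 were called between WT and Ahr-KO. The count was 0 in females only, 1 in males only and 1 without the 2 libraries with most genes detected, a setting chosen after seeing the data, and 2 to 5 on leaving out 1 library. Between WT and Ahrr-KO it was 0 in all 15 alternatives and without each library.

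Between Ahrr-KO and Ahr-KO 5 were called. The count was 3 with voom, where 1230 of all genes were called against 1708 in limma. It was 3 with the stricter minimum, 3 with all 18 samples in the fit and 2 without the sex covariate. In females only it was 0 and in males only 3. It was 1 without the 3 libraries highest in enterocyte and goblet markers, also chosen after seeing the data. On leaving out 1 library it was 1 to 8. Between males and females 3 were called. The count was 1 with no minimum, 5 with quantile normalization, 10 with sample weights and 5 without the 2 libraries highest in Hspa1a, chosen after seeing the data, and 1 to 5 on leaving out 1 library. The cause of these changes was not tested, and each sex alone has fewer samples. Apart from voom, the numbers of all genes called under these settings are not given here. A rise or fall of these counts is thus not read as particular to the heat shock and DnaJ genes.

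With the replicate block the counts were 3 and 5 in the Ahr-KO comparisons. In Ahrr-KO and Ahr-KO the 5 were Hspd1, Hspe1, Dnajc22, Hspg2 and Dnajb1, without Hspa13 (adjusted p = 0.0505) and Dnaja3 (0.0502). But sample numbers do not pair: correlations of same-numbered samples ran from -0.59 to 0.47, and 5 of 18 were best with their own number. Interactions gave 0 by voom as well, with an all-gene median of -0.15 for WT and Ahr-KO. Of the 17 genes under the minimum over all samples, Dnajb13 was tested, between WT and Ahrr-KO.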

Other observations

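After the values had been seen, the genes closest to Hspd1 and Hspa4l were read the same way as those closest to Hsph1. The 8 closest to Hspd1 were C1qbp, a mitochondrial matrix protein (r = 0.959, rho = 0.928 over 18 samples, 0.930 without WT F1 and F2), Fads2 (0.953, 0.938, 0.927), Mlec (0.949, 0.922, 0.918), Kdelr1 (0.945, 0.942, 0.966), Ctnnbip1 (0.944, 0.915, 0.907), Dmbt1 (0.940, 0.920, 0.919), Nlrp6 (0.938, 0.920, 0.895) and Clstn1 (0.938, 0.940, 0.931). The 8 closest to Hspa4l were Kpna4, an importin (r = 0.9502, rho = 0.948, 0.904 without WT M1 and Ahrr-KO F3), Eya3 (0.915, 0.940, 0.848), Lamp2 (0.905, 0.930, 0.852), Dhx40 (0.893, 0.849, 0.803), Slc3a2 (0.888, 0.849, 0.801), Pnpla8 (0.875, 0.843, 0.753), Csnk1a1 (0.874, 0.899, 0.807) and Smpd5 (0.873, 0.858, 0.767). These are descriptions of libraries that also differ in depth and cell content.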
